A study of Mus musculus with 12 samples.

Results

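Expression of 9 senescence and p53 pathway genes was examined in the hippocampus of naturally aged mice given pyrroloquinoline quinone (PQQ), a redox cofactor supplied by food. The genes were Trp53, Mdm2, Cdkn1a, Cdkn1b, Cdkn2a, Cdkn2c, Lmnb1, Glb1 and Foxo3. They were taken by symbol from the 27833 genes of the expression table, by a rule that uses no measured value, though the set was drawn up with earlier results of these data known. In all 12 libraries every one of the 9 genes was above 0.

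The libraries were made from hippocampus of male C57BL/6J mice of genotype WT, aged 20 months, and all mice were gavaged daily for 14 days. The CON group received normal saline (3 libraries), the PQQ-L group received PQQ at 5 mg/kg/day (5 libraries) and the PQQ-H group received PQQ at 10 mg/kg/day (4 libraries). No young group is among these libraries, so each comparison is between treatments at 1 age. Levels are given as FPKM, that is, fragments divided by the length of the transcript and by the size of the library, a unit that can be compared between genes.

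Cellular senescence is a lasting exit from the cell cycle in which cells stay alive and secrete signaling proteins. The routes that hold it meet at the retinoblastoma protein: p53 switches on the cyclin-dependent kinase (CDK) inhibitor p21, and p16 blocks the kinases that bind D-type cyclins. Increased lysosomal β-galactosidase activity, loss of lamin B1 from the nuclear envelope and high p16 and p21 are the markers most used for it, while FoxO factors set stress resistance and quiescence. In brain, nearly all neurons have left the cell cycle, and these genes are read in mixed tissue together with glia and vessels.

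Depth and tissue content were looked at before the comparisons. The reads on genes totaled 29654553 to 38179496 per library. Counting error is largest for Cdkn2a, with 1 to 34 reads per library, and next for Cdkn2c, with 50 to 148. Every other member had 174 reads or more in each library. The summed level of 16 choroid plexus markers was 1803 to 5994 FPKM in CON, 104 to 203 FPKM in PQQ-L and 78.7 to 96.6 FPKM in PQQ-H, with Kcne2 at 0 in PQQ-L 1, PQQ-L 2 and PQQ-H 4, and with Folr1, Krt8, Otx2 and Slc4a5 at 0 in PQQ-H 4. The CON libraries lay above all others in it, so treatment and choroid plexus content cannot be told apart. The summed level of 12 striatum markers, none of them at 0 in any library, was 3410 FPKM in CON 1, 1394 FPKM in CON 3, 2563 FPKM in PQQ-H 1 and 1357 FPKM in PQQ-H 2, against 38.3 to 183 FPKM in the other 8 libraries. These 4 libraries are called striatum-rich below. The labelled tissue was checked with 10 hippocampal neuron markers, which summed to 68.6 to 273 FPKM in CON, 196 to 346 FPKM in PQQ-L and 116 to 412 FPKM in PQQ-H, with Lct at 0 in CON 1. The 4 striatum-rich libraries were the lowest in them, at 68.6 to 139 FPKM, against 196 to 412 FPKM in the other 8 libraries. In bulk tissue, fewer cells of a type and less RNA per cell cannot be told apart.

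Among the 9 genes, the order of the levels was stable over most steps. Averaged over the 12 libraries, Cdkn1b was at 17.6 FPKM, Foxo3 at 11.1 FPKM, Trp53 at 9.22 FPKM, Glb1 at 7.14 FPKM, Cdkn1a at 6.46 FPKM, Mdm2 at 5.74 FPKM, Lmnb1 at 2.47 FPKM, Cdkn2c at 1.13 FPKM and Cdkn2a at 0.213 FPKM. Cdkn1b was above Foxo3 in all 12 libraries, and the same held for Trp53 above Glb1, Mdm2 above Lmnb1, Lmnb1 above Cdkn2c and Cdkn2c above Cdkn2a. Foxo3 and Trp53 changed places in 2 of the 12 libraries. Cdkn1a did not differ from its neighbours beyond its spread, being below Glb1 in 9 libraries and above Mdm2 in 6 of the 12. Cdkn1a was also the most variable tested member, with a coefficient of variation of 38.7% over the 12 libraries, and Mdm2 was the least variable at 9.29%.

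**Figure D1:**
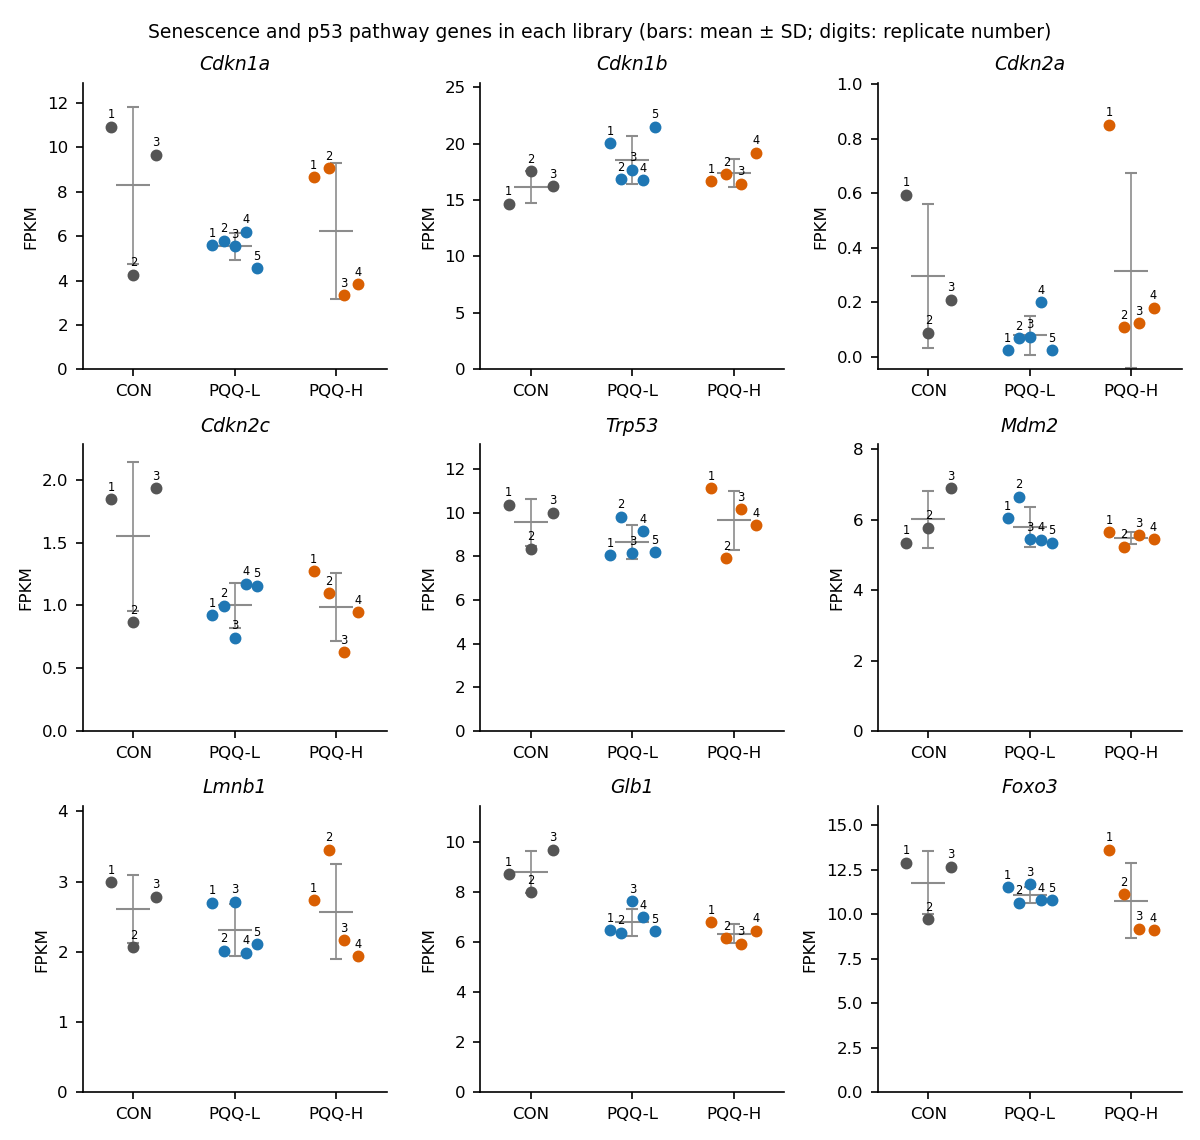
FPKM of each of the 9 genes (vertical axis, from 0 except for Cdkn2a, where an error bar goes below 0) in CON, PQQ-L and PQQ-H, with 1 point per library, its replicate number above it, and mean ± SD as the bar. Glb1 is the gene whose CON points, from 7.99 to 9.68 FPKM, lie above every point of both PQQ groups, while Cdkn1a splits within CON and within PQQ-H.

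Across the comparisons, Glb1 was the member that stood apart. It fell in PQQ-H relative to CON by 0.47 on the log2 scale, with an adjusted p of 0.0412 (limma, Benjamini-Hochberg over 13796 genes), and its level in PQQ-L was lower than in CON as well without passing the adjusted test. The p53 gene itself, its inhibitor Mdm2, its target Cdkn1a, the other CDK inhibitors, Lmnb1 and Foxo3 did not pass the test in any comparison. Cdkn2a, with a mean below the filter of 0.5 FPKM, was left out of limma and compared by permutation only.

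In numbers, 0 of the 8 tested members passed an adjusted p of 0.05 in PQQ-L vs CON, where 0.587% of all tested genes did, and 1 of 8 had an unadjusted p below 0.05, against 20.5% of all genes. In PQQ-H vs CON, 1 of 8 passed, against 1.09% of all genes, and 1 of 8 had an unadjusted p below 0.05, against 9.73%. For PQQ-H vs PQQ-L the limma count was 0 of 8 at the adjusted threshold, where 0% of all genes passed, and 0 of 8 at the unadjusted threshold, which 8.15% of all genes met. No member reached an absolute log2 fold change (log2FC) above 1 in limma. The median log2FC of the 8 members was -0.15 for PQQ-L vs CON and -0.13 for PQQ-H vs CON, beside medians of -0.030 and -0.027 over all tested genes. The log2FC was negative for 7 of the 8 in the first comparison, against 53.9% of all genes, and for 6 of the 8 in the second, against 55.6%. Both PQQ groups are compared with the same 3 CON libraries, so these are not separate observations of the controls.

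**Figure D2:**
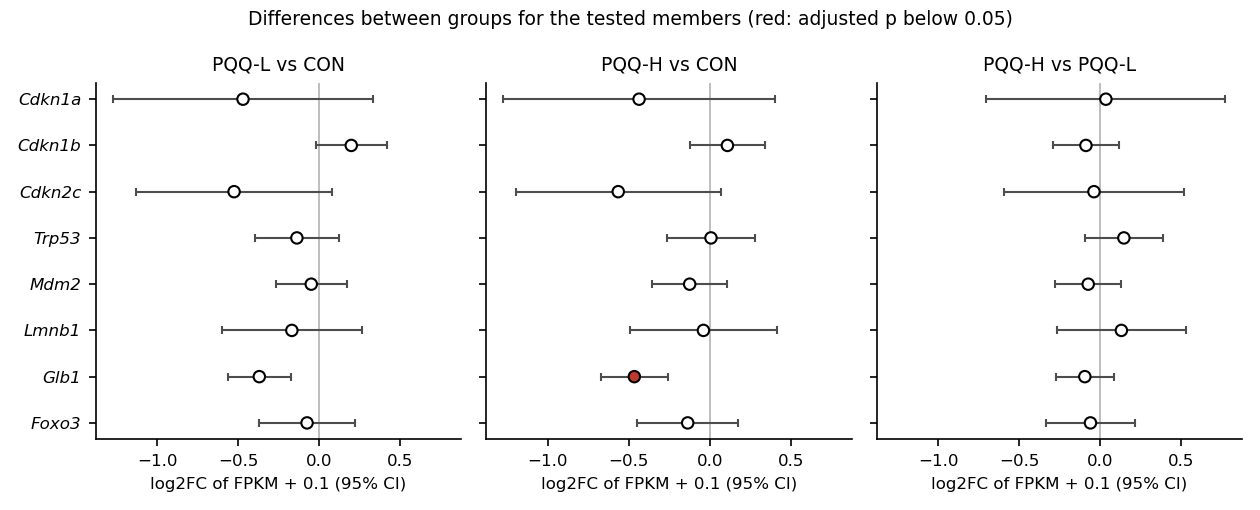
Log2FC of FPKM + 0.1 for the 8 tested genes (horizontal axis, with 95% confidence intervals) in the 3 comparisons, in red where the adjusted p was below 0.05. Glb1 in PQQ-H vs CON is the red point, and the intervals of Cdkn1a and Cdkn2c are the widest.

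Trp53 encodes p53, the transcription factor that is stabilized after DNA damage and other stress. Trp53 measured 10.4, 8.35 and 10.0 FPKM in CON 1 to 3, 8.06, 9.82, 8.16, 9.14 and 8.20 FPKM in PQQ-L 1 to 5, and 11.1, 7.91, 10.1 and 9.42 FPKM in PQQ-H 1 to 4. The 3 groups overlapped, and both the lowest and the highest library were in PQQ-H. The log2FC was -0.14 in PQQ-L vs CON (adjusted p = 0.443 by limma, 95% confidence interval -0.40 to 0.12) and 0.0071 in PQQ-H vs CON (adjusted p = 0.988, interval -0.27 to 0.28). Since p53 is controlled mainly as a protein, the level of its mRNA is not a readout of p53 activity.

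Mdm2, the ubiquitin ligase that marks p53 for degradation and is itself a p53 target, was the steadiest of the genes. It measured 5.35, 5.78 and 6.90 FPKM in CON, 6.05, 6.66, 5.46, 5.43 and 5.35 FPKM in PQQ-L, and 5.65, 5.24, 5.56 and 5.46 FPKM in PQQ-H. The groups overlapped, with CON 3 the highest library and PQQ-H 2 the lowest. Its log2FC was -0.050 in PQQ-L vs CON (adjusted p = 0.752 by limma, interval -0.27 to 0.17) and -0.12 in PQQ-H vs CON (adjusted p = 0.769, interval -0.35 to 0.11).

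Cdkn1a encodes p21, the CDK inhibitor that p53 induces and that stops the cycle at the entry to DNA synthesis. Cdkn1a measured 10.9, 4.27 and 9.68 FPKM in CON 1 to 3, 5.58, 5.80, 5.56, 6.21 and 4.58 FPKM in PQQ-L 1 to 5, and 8.66, 9.07, 3.36 and 3.85 FPKM in PQQ-H 1 to 4. CON and PQQ-H each held high and low libraries, while the PQQ-L libraries lay close together between them. The mean was 8.30 ± 3.54 FPKM (SD, n = 3) in CON, 5.55 ± 0.603 FPKM (SD, n = 5) in PQQ-L and 6.23 ± 3.05 FPKM (SD, n = 4) in PQQ-H. Its log2FC of -0.47 in PQQ-L vs CON (adjusted p = 0.400 by limma) and of -0.44 in PQQ-H vs CON (adjusted p = 0.774) were within the spread between replicates, with intervals of -1.27 to 0.33 and -1.27 to 0.40. The exact permutation test gave p = 0.179 and p = 0.457, two-sided.

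The high and low Cdkn1a libraries followed the striatum markers. In the 4 striatum-rich libraries Cdkn1a was at 8.66 to 10.9 FPKM, and in the other 8 libraries it was at 3.36 to 6.21 FPKM, with no overlap. The summed level of 8 oligodendrocyte markers, none at 0, was also higher in these 4 libraries, at 1758 to 2772 FPKM, than in the other 8, at 957 to 1682 FPKM. Microglia markers were also higher there, at 265 to 337 FPKM against 191 to 237 FPKM. So were endothelium markers, at 128 to 167 FPKM against 99.0 to 120 FPKM. Hippocampal neuron markers were lower there, as given above. The part of each of these cell types in the Cdkn1a level was not tested. Without the 4 libraries, an alternative chosen after seeing the data that leaves 1 CON library, the log2FC of Cdkn1a turned to 0.36 in PQQ-L vs CON and was -0.24 in PQQ-H vs CON.

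**Figure D3:**
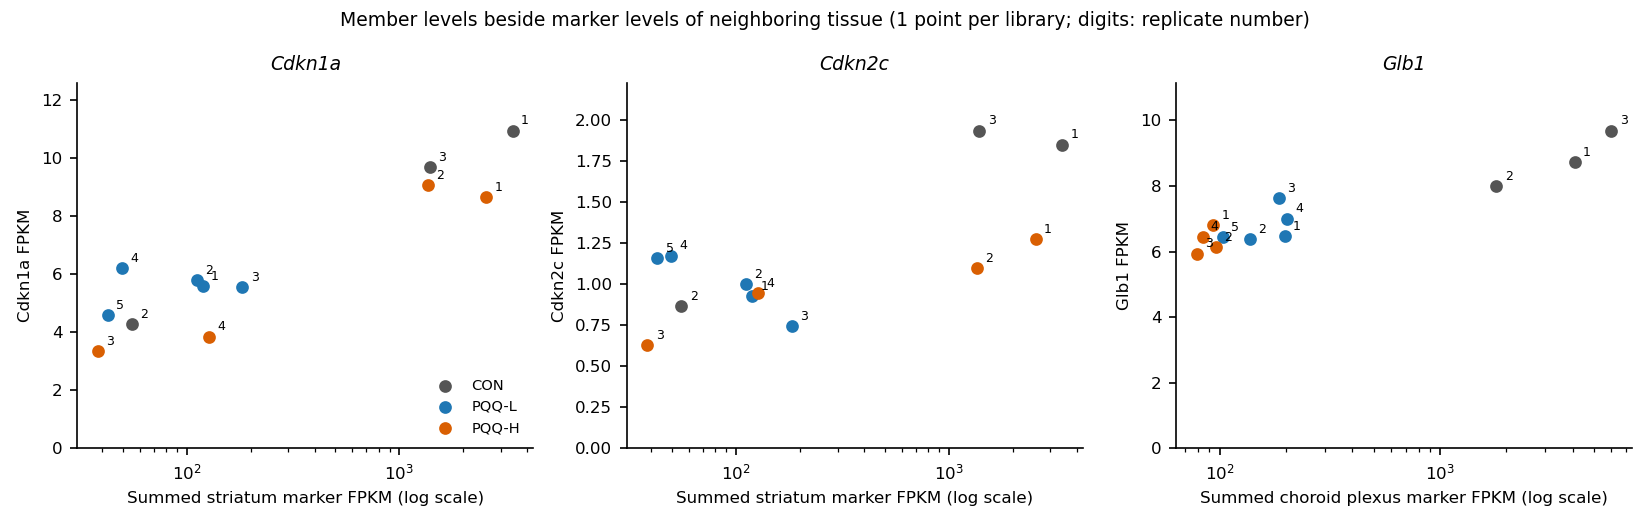
FPKM of Cdkn1a and Cdkn2c against the summed FPKM of striatum markers, and of Glb1 against the summed FPKM of choroid plexus markers (horizontal axes on a log scale), with 1 point per library and its replicate number. CON 1, CON 3, PQQ-H 1 and PQQ-H 2 lie apart on the right for the striatum markers and have the 4 highest Cdkn1a levels, and the 3 CON libraries lie apart on the right for the choroid plexus markers and have the 3 highest Glb1 levels.

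The promoter of Cdkn1a is shown because p53 induces this gene. RefSeq promoters of build GRCm38.p6 were matched by symbol for 8 of the 9 members, and the 250 bases before each start were searched for a p53 response element, a pair of p53 decamers at most 13 bases apart, which reads the same on both strands. The element was found in 18 of 27025 genes (0.0666%), and Cdkn1a was the member with a match, before 1 of its 2 RefSeq starts at chr17:29090729-29090978 on the + strand, from base -73 to -42 relative to the start. None of 20 matched p53 target genes other than the members held it in this window. The match is in capitals below. It is a match of letters and no measure of p53 binding, and sites that depart from this pattern were not searched for.
Cdkn1a: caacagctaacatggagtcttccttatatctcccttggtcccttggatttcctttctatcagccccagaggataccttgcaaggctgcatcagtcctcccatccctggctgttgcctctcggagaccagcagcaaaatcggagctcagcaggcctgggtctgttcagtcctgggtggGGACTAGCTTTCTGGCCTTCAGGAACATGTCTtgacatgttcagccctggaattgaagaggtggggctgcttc

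Around p53, 1 other target gene passed the adjusted test. Of 28 other p53 target genes, 23 were tested, and 1, Perp, passed against CON in both PQQ groups, in each case lower. The share of all tested genes that passed (limma) was 0.587% at the low dose and 1.09% at the high dose. Unadjusted p-values below 0.05 (limma) were found for 4 of the 23 at the low dose, 2 lower and 2 higher, against 20.5% of all genes. The high dose had 2 lower and 0 higher, against 9.73%. Perp, a membrane protein of cell junctions that p53 also induces in apoptosis, was at 6.88 ± 2.47 FPKM (SD, n = 3) in CON, 2.11 ± 0.156 FPKM (SD, n = 5) in PQQ-L and 2.03 ± 0.473 FPKM (SD, n = 4) in PQQ-H. It fell by 1.59 on the log2 scale in PQQ-L (SE 0.224, adjusted p = 0.00701 by limma) and fell by 1.68 in PQQ-H (SE 0.234, adjusted p = 0.00487). The median log2FC of the 23 genes was 0.059 for PQQ-L vs CON and -0.033 for PQQ-H vs CON, near the median of all genes. Phlda3, a p53-induced inhibitor of AKT signaling, had a log2FC of -0.62 in PQQ-L vs CON (adjusted p = 0.237 by limma) and -0.65 in PQQ-H vs CON (adjusted p = 0.465). Rrm2b, the p53-induced subunit of ribonucleotide reductase, had a log2FC of 0.34 (adjusted p = 0.235) and 0.29 (adjusted p = 0.576).

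Of 15 regulators of p53, 11 were tested and 0 passed the adjusted test in either comparison by limma, against 0.587% and 1.09% of all genes. At an unadjusted p below 0.05 (limma) there were 2 and 0, against the 20.5% and 9.73% of all genes given above. The same shares of all genes apply to the lamina and FoxO lists. Mdm4, the partner of Mdm2 that masks the p53 activation domain, was at 6.53 ± 0.521 FPKM (SD, n = 3) in CON, 7.88 ± 0.523 FPKM (SD, n = 5) in PQQ-L and 7.34 ± 0.666 FPKM (SD, n = 4) in PQQ-H. Its log2FC was 0.27 in PQQ-L vs CON (adjusted p = 0.217 by limma) with groups that did not overlap, as held for 10.6% of all tested genes, and 0.17 in PQQ-H vs CON (adjusted p = 0.635). The acetyltransferase gene Crebbp had a log2FC of 0.26 (adjusted p = 0.221 by limma) and 0.085 (adjusted p = 0.824), and the acetyltransferase gene Kat5 of -0.17 (adjusted p = 0.249) and -0.13 (adjusted p = 0.687). The p53 relatives Trp63, at 0.0495 to 0.226 FPKM, and Trp73, at 0.0698 to 0.644 FPKM, were below the filter.

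Cdkn1b encodes p27, the CDK inhibitor of quiescent and postmitotic cells. It measured 14.7, 17.5 and 16.2 FPKM in CON, 20.0, 16.8, 17.7, 16.8 and 21.5 FPKM in PQQ-L, and 16.7, 17.3, 16.5 and 19.2 FPKM in PQQ-H. PQQ-L 5 and PQQ-L 1 were the highest libraries and CON 1 was the lowest, and the groups overlapped. The log2FC was 0.20 in PQQ-L vs CON (adjusted p = 0.258 by limma, interval -0.023 to 0.42) and 0.11 in PQQ-H vs CON (adjusted p = 0.793, interval -0.12 to 0.34).

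Cdkn2a encodes both p16 and p19ARF from separate starts that share exons, and its row in the table does not separate them. Cdkn2a measured 0.595, 0.0890 and 0.210 FPKM in CON 1 to 3, from 24, 3 and 8 reads. In PQQ-L 1 to 5 it measured 0.0245, 0.0692, 0.0738, 0.200 and 0.0258 FPKM, from 1, 3, 3, 8 and 1 reads. In PQQ-H 1 to 4 it measured 0.851, 0.109, 0.125 and 0.180 FPKM, from 34, 4, 5 and 7 reads. CON 1 and PQQ-H 1 were the highest libraries, both of them striatum-rich, and the 3 groups overlapped. The exact permutation test of the difference in mean log2(FPKM + 0.1), two-sided, gave p = 0.0714 in PQQ-L vs CON (difference -1.03), p = 0.914 in PQQ-H vs CON (difference -0.041) and p = 0.0794 in PQQ-H vs PQQ-L (difference 0.98). The reads per library ran from 1 to 34, and what size of difference could be detected was not tested.

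Cdkn2c encodes p18, an inhibitor of CDK4 and CDK6 of the same family as p16. Cdkn2c measured 1.85, 0.868 and 1.94 FPKM in CON 1 to 3, 0.925, 1.0, 0.744, 1.17 and 1.16 FPKM in PQQ-L, and 1.27, 1.1, 0.630 and 0.948 FPKM in PQQ-H. CON 1 and CON 3 were above every PQQ library, and CON 2 lay among them. The log2FC was -0.53 in PQQ-L vs CON (adjusted p = 0.263 by limma, interval -1.13 to 0.079) and -0.56 in PQQ-H vs CON (adjusted p = 0.576, interval -1.20 to 0.068). The value turned on CON 2, since without it the log2FC was -0.87 in PQQ-L vs CON with an adjusted p of 0.0356 by limma. In the same fit, the number of all genes that passed in PQQ-L vs CON went from 81 to 3224. The libraries CON 1 and CON 3 are the 2 striatum-rich controls, while the striatum-rich PQQ-H 1 and PQQ-H 2 were at 1.27 and 1.1 FPKM. CON 1 and CON 3 also had the highest choroid plexus marker sums, 4092 and 5994 FPKM. Those sums were 1803 FPKM in CON 2 and 78.7 to 203 FPKM in the PQQ libraries. The part of either tissue in the Cdkn2c level was not tested.

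Of the other genes of the G1 checkpoint, 1 passed the adjusted test. Of 16 cell cycle and retinoblastoma genes other than the members, 14 were tested. By limma, 0 passed the adjusted test in PQQ-L vs CON, against 0.587% of all genes. In PQQ-H vs CON 1 of the 14, Cdkn1c, passed, against 1.09% of all genes. At an unadjusted p below 0.05, 3 were lower and 3 higher in PQQ-L vs CON (6 of 14, against 20.5% of all genes), while PQQ-H vs CON had 2 lower and 0 higher (against 9.73%). Cdkn1c, which encodes p57 and restrains proliferation in development, was at 11.1 ± 4.90 FPKM (SD, n = 3) in CON, 3.55 ± 1.70 FPKM (SD, n = 5) in PQQ-L and 2.33 ± 0.899 FPKM (SD, n = 4) in PQQ-H. It fell by 2.18 on the log2 scale in PQQ-H relative to CON (SE 0.405, adjusted p = 0.0268 by limma), and its log2FC in PQQ-L was -1.63 (SE 0.387, adjusted p = 0.104). Ccnd3, a D-type cyclin, had a log2FC of -0.35 in PQQ-L vs CON (adjusted p = 0.218 by limma) and -0.51 in PQQ-H vs CON (adjusted p = 0.106). Cdk4, the kinase that p16 and p18 inhibit, had a log2FC of -0.52 (adjusted p = 0.186 by limma) and -0.13 (adjusted p = 0.842). The remaining inhibitors of that family differed widely in level, with Cdkn2d, encoding p19INK4D, at 34.1 to 40.9 FPKM and Cdkn2b, encoding p15, at 0.177 to 1.23 FPKM over the 12 libraries.

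Lmnb1 encodes lamin B1, the nuclear envelope filament whose loss marks senescent cells. Lmnb1 measured 2.99, 2.06 and 2.78 FPKM in CON, 2.70, 2.02, 2.71, 1.99 and 2.11 FPKM in PQQ-L, and 2.73, 3.45, 2.17 and 1.93 FPKM in PQQ-H. The groups overlapped, and PQQ-H spanned the whole range, with PQQ-H 2 the highest library and PQQ-H 4 the lowest. As with Cdkn1a, the striatum-rich libraries lay above all others, at 2.73 to 3.45 FPKM against 1.93 to 2.71 FPKM. The part of that tissue in the Lmnb1 level was not tested. The log2FC was -0.17 in PQQ-L vs CON (adjusted p = 0.568 by limma, interval -0.60 to 0.26) and -0.039 in PQQ-H vs CON (adjusted p = 0.959, interval -0.49 to 0.41). All 10 other genes of the nuclear lamina and envelope were tested, and by limma 0 passed the adjusted test in either comparison, with 4 and 1 at an unadjusted p below 0.05. Lmna, the gene of the A-type lamins, had a log2FC of -0.27 in PQQ-L vs CON (adjusted p = 0.235 by limma) and -0.42 in PQQ-H vs CON (adjusted p = 0.176). Lmnb2, the gene of lamin B2, had a log2FC of 0.29 (adjusted p = 0.183 by limma) and 0.021 (adjusted p = 0.951). The DNA-bridging factor gene Banf1 had a log2FC of -0.24 (adjusted p = 0.206 by limma) and 0.051 (adjusted p = 0.873), and Lbr, the gene of the lamin B receptor, of -0.14 (adjusted p = 0.446) and -0.22 (adjusted p = 0.626).

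Glb1 encodes the lysosomal β-galactosidase that is assayed at raised pH as a stain for senescent cells. Glb1 measured 8.72, 7.99 and 9.68 FPKM in CON 1 to 3, 6.47, 6.37, 7.62, 7.0 and 6.43 FPKM in PQQ-L 1 to 5, and 6.80, 6.14, 5.94 and 6.46 FPKM in PQQ-H 1 to 4. Each CON library was above each of the 9 PQQ libraries, and the PQQ groups overlapped with one another. The mean was 8.80 ± 0.848 FPKM (SD, n = 3) in CON, 6.78 ± 0.534 FPKM (SD, n = 5) in PQQ-L and 6.33 ± 0.378 FPKM (SD, n = 4) in PQQ-H. Groups without overlap were found for 10.6% of all tested genes when PQQ-L was compared with CON and for 7.08% with PQQ-H, and for 1 of the 8 tested members in each.

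In PQQ-H relative to CON, Glb1 fell by 0.47 on the log2 scale (SE 0.0935, 95% confidence interval -0.67 to -0.26, adjusted p = 0.0412 by limma), or by 27.6%. In PQQ-L vs CON its log2FC was -0.37 (SE 0.0894, interval -0.57 to -0.17), with an adjusted p of 0.107 by limma that did not pass. The exact permutation test gave p = 0.0286 for PQQ-H and p = 0.0179 for PQQ-L, two-sided, which are the smallest p these group sizes allow. The doses differed from each other by a log2FC of -0.095 (adjusted p = 0.652 by limma, interval -0.28 to 0.085), which does not show that they act alike.

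The call of Glb1 in PQQ-H was kept under some alternatives and lost under many others. It was kept with other pseudocounts and filters, with no trend, with voom (adjusted p = 0.0420 by limma) and with the striatum score as a covariate (adjusted p = 0.0217 by limma). Without the striatum-rich libraries, which leaves 1 CON library, the log2FC was -0.36, which is given as an effect size and not as a call that was kept. The adjusted p (limma) was 0.0837 after median-of-ratios scaling, 0.236 with only the 2 groups compared, 0.481 with array quality weights, 0.248 with the replicate block and 0.0775 with the letter that opens each library name as a covariate. It was also above 0.05 when any 1 library other than CON 2 or PQQ-L 3 was left out, up to 0.196 without CON 3 (limma in each case). The log2FC stayed between -0.53 and -0.40 in these fits without 1 library. The first letter of the library names, L or R, is not explained in the sources used here, and within it the CON libraries were also above the PQQ libraries, at 7.99 and 9.68 FPKM against 5.94 to 7.0 FPKM for L and at 8.72 FPKM against 6.37 to 7.62 FPKM for R. With the choroid plexus score as a covariate the log2FC turned to 0.33 in PQQ-H vs CON (adjusted p = 0.958 by limma) and to 0.24 in PQQ-L vs CON (adjusted p = 1). Since the CON libraries had 1803 to 5994 FPKM of choroid plexus markers and the PQQ libraries 78.7 to 203 FPKM, the treatment and this tissue cannot be told apart for Glb1.

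**Figure D4:**
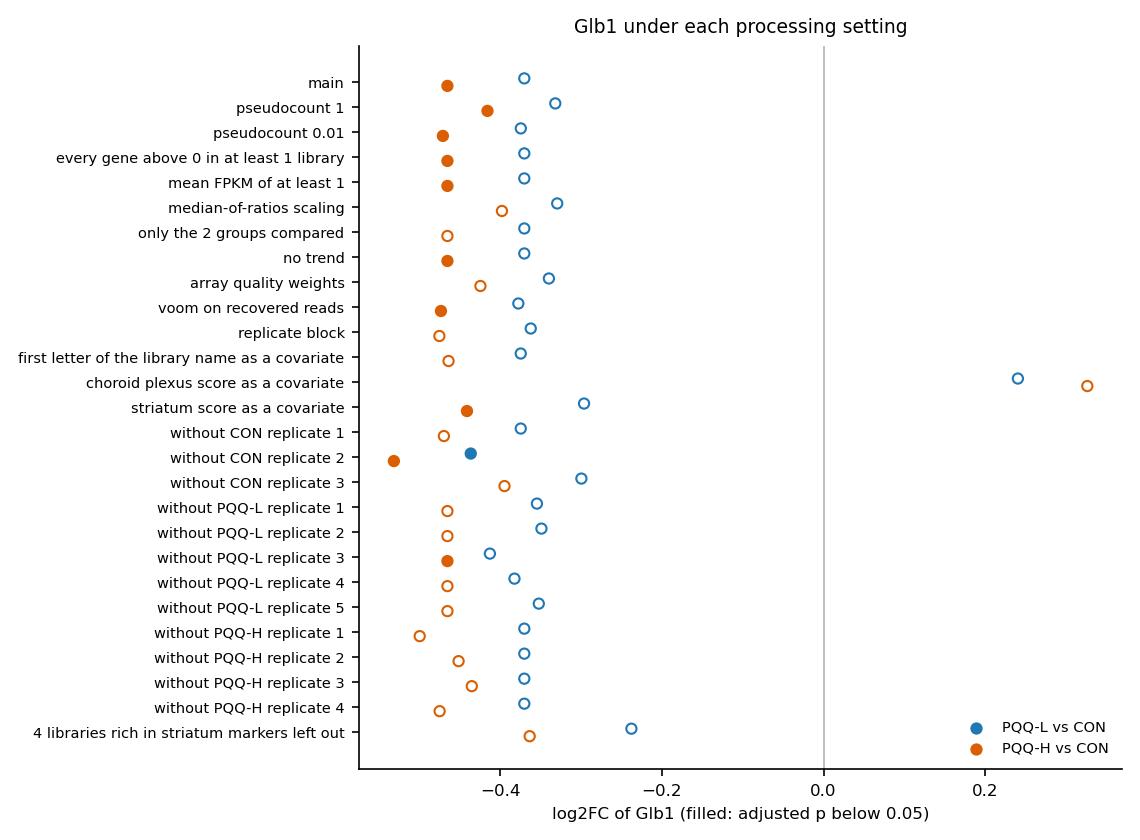
Log2FC of Glb1 (horizontal axis) of each PQQ group relative to CON under each processing setting and with each library left out (vertical axis), filled where the adjusted p was below 0.05. The points lie between -0.53 and -0.24 under all settings except the choroid plexus covariate, where they are at 0.24 and 0.33.

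Of the other lysosomal genes, 1 passed the adjusted test. All 18 lysosomal enzymes, membrane proteins and regulators of the list were tested, of which 14 had a negative log2FC for PQQ-L vs CON and 16 for PQQ-H vs CON. At an unadjusted p below 0.05, 8 for PQQ-L vs CON and 7 for PQQ-H vs CON were lower, with 0 higher, against 11.6% and 7.88% of all tested genes. The adjusted test was passed by 1 gene, Fuca1, in PQQ-L and by 0 in PQQ-H (limma), against 0.587% and 1.09% of all tested genes. The median log2FC of the list was -0.25 for PQQ-L vs CON and -0.23 for PQQ-H vs CON, beside -0.030 and -0.027 over all genes. Fuca1, the lysosomal α-fucosidase, was at 19.4 ± 2.01 FPKM (SD, n = 3) in CON, 13.9 ± 0.906 FPKM (SD, n = 5) in PQQ-L and 15.2 ± 1.0 FPKM (SD, n = 4) in PQQ-H. It fell by 0.48 on the log2 scale in PQQ-L (SE 0.0866, adjusted p = 0.0333 by limma), and its log2FC in PQQ-H was -0.35 (SE 0.0906, adjusted p = 0.129). Ctsd, the aspartic protease cathepsin D, was at 306 ± 55.9 FPKM (SD, n = 3) in CON, 212 ± 15.4 FPKM (SD, n = 5) in PQQ-L and 221 ± 19.9 FPKM (SD, n = 4) in PQQ-H, with a log2FC of -0.51 (adjusted p = 0.0922 by limma) and -0.46 (adjusted p = 0.156). The partners that form a complex with β-galactosidase in the lysosome, Ctsa at 21.6 to 37.6 FPKM and Neu1 at 10.2 to 14.8 FPKM, were each expressed in every library. Ctsa had a log2FC of -0.42 (adjusted p = 0.22 by limma) and -0.28 (adjusted p = 0.612), and Neu1 had one of opposite sign, at 0.14 (adjusted p = 0.393) and 0.11 (adjusted p = 0.807). The count at the unadjusted threshold ran from 3 without CON 3 to 10 without CON 2 in each comparison, and it was 0 with the choroid plexus score as a covariate. With that covariate, 1.94% and 1.98% of all tested genes met the unadjusted threshold.

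Promoters of Glb1 and Ctsd are shown because the letters TCACGTG, the core of the element that TFEB recognizes before many lysosomal genes, occur in both. TCACGTG or its reverse complement CACGTGA was found within the 250 bases before the start in 968 of 27025 genes (3.58%), in 7 of the 15 lysosomal list genes with a RefSeq promoter (46.7%), and in 1 of the 8 members with a promoter, Glb1. On GRCm38.p6 the window of Glb1 is chr9:114400828-114401077 on the + strand, with the match from base -49 to -43 relative to the start. The window of Ctsd is chr7:142387828-142388077 on the - strand and holds matches from base -245 to -239, from -99 to -93 and from -98 to -92, of which the last 2 overlap. A match of letters is a description and no measure of binding. Matches are in capitals.
Glb1: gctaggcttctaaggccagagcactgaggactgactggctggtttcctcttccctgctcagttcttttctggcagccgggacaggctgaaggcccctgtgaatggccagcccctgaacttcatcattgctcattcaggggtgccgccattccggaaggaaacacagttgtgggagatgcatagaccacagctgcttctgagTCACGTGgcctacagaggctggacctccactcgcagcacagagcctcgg
Ctsd: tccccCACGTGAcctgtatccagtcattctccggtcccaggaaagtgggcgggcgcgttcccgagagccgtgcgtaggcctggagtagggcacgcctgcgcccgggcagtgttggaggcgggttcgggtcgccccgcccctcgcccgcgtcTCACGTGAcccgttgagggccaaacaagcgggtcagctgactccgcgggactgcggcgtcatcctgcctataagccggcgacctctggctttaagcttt

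Foxo3 encodes a forkhead factor that moves into the nucleus when insulin signaling is low and supports quiescence and stress resistance. Foxo3 measured 12.9, 9.74 and 12.7 FPKM in CON, 11.5, 10.7, 11.7, 10.8 and 10.8 FPKM in PQQ-L, and 13.6, 11.1, 9.19 and 9.11 FPKM in PQQ-H. PQQ-H held both the highest and the lowest library, and the groups overlapped. The log2FC was -0.076 in PQQ-L vs CON (adjusted p = 0.718 by limma, interval -0.37 to 0.22) and -0.14 in PQQ-H vs CON (adjusted p = 0.809, interval -0.45 to 0.17). Its paralog Foxo1 was at 4.56 to 17.8 FPKM, Foxo4 at 4.61 to 7.27 FPKM and Foxo6 at 2.75 to 8.72 FPKM over the 12 libraries.

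Of 20 other FoxO pathway genes, 19 were tested, and by limma 0 passed the adjusted test in either comparison, with 5 and 1 at an unadjusted p below 0.05. Sirt1, the deacetylase that acts on p53 and on FoxO factors, was at 2.80 ± 0.238 FPKM (SD, n = 3) in CON, 3.54 ± 0.272 FPKM (SD, n = 5) in PQQ-L and 3.15 ± 0.188 FPKM (SD, n = 4) in PQQ-H. For Sirt1 the log2FC was 0.33 in PQQ-L vs CON (adjusted p = 0.173 by limma) and 0.17 in PQQ-H vs CON (adjusted p = 0.642). Its lowest level in PQQ-L, 3.11 FPKM, was above its highest level in CON, 3.04 FPKM. Such a gap, in either direction, was found in PQQ-L vs CON for 10.6% of all tested genes and for 3 of these 19. Txnip, an inhibitor of thioredoxin and a FoxO target, had a log2FC of -0.71 (adjusted p = 0.224 by limma) and -0.84 (adjusted p = 0.275), and Ccng2, a cyclin gene that FoxO factors switch on, of 0.10 (adjusted p = 0.582) and 0.28 (adjusted p = 0.516).

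Senescent cells secrete a set of cytokines, growth factor binding proteins and proteases, the senescence-associated secretory phenotype (SASP), and 2 of its genes passed the test. Of 33 SASP genes, 17 were tested, and 16 lay below the filter, among them Il6, Il1a, Il1b, Tnf, Cxcl1 and Ccl2. In both PQQ comparisons with CON, 5 of the 17 were lower at an unadjusted p below 0.05 and 0 were higher, and 2, Igfbp2 and Mmp14, passed the adjusted test. Of all tested genes, 11.6% and 7.88% were lower at the unadjusted threshold in the respective comparisons, and 0.587% and 1.09% passed the adjusted one. Igfbp2, which binds insulin-like growth factors, was at 46.1 ± 16.3 FPKM (SD, n = 3) in CON, 14.6 ± 5.61 FPKM (SD, n = 5) in PQQ-L and 10.5 ± 1.40 FPKM (SD, n = 4) in PQQ-H. It fell by 1.67 on the log2 scale in PQQ-L (SE 0.296, adjusted p = 0.0283 by limma) and fell by 2.08 in PQQ-H (SE 0.310, adjusted p = 0.00728). Mmp14, a membrane-bound matrix protease, was at 5.28 ± 0.283 FPKM (SD, n = 3) in CON, 3.32 ± 0.460 FPKM (SD, n = 5) in PQQ-L and 2.73 ± 0.307 FPKM (SD, n = 4) in PQQ-H. It fell by 0.66 on the log2 scale in PQQ-L (SE 0.121, adjusted p = 0.0333 by limma) and fell by 0.93 in PQQ-H (SE 0.126, adjusted p = 0.00414). The median log2FC of the 17 was -0.38 for PQQ-L vs CON and -0.47 for PQQ-H vs CON, beside -0.030 and -0.027 over all genes.

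**Figure D5:**
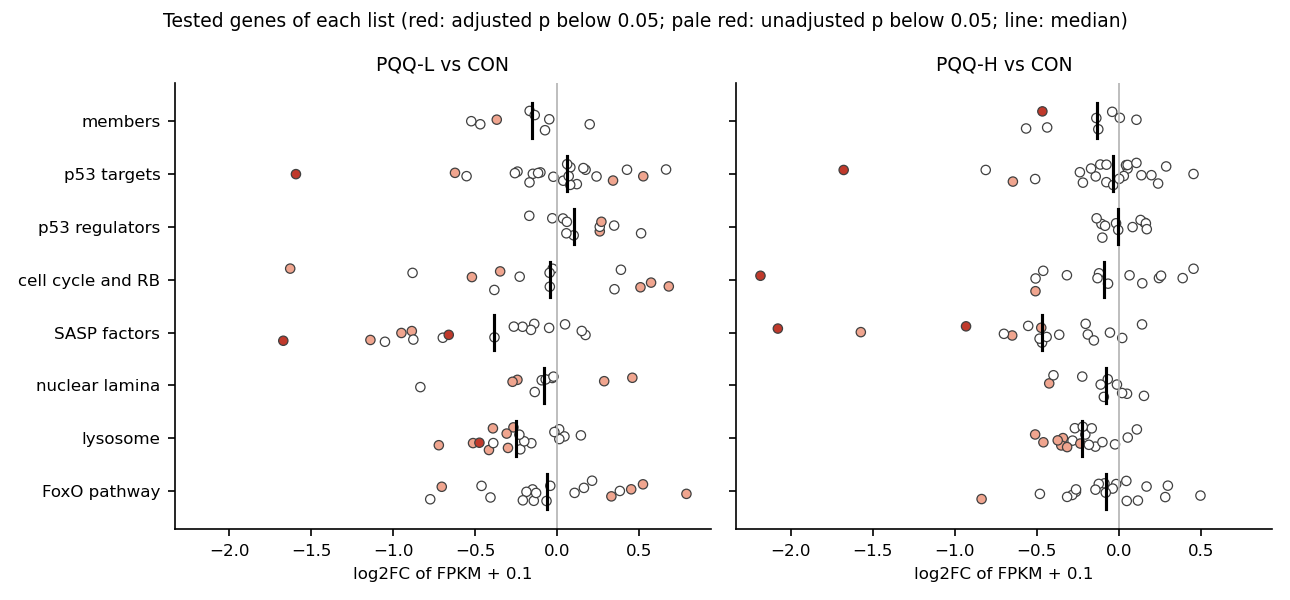
Log2FC of FPKM + 0.1 (horizontal axis) of the tested genes of each list (vertical axis) for each PQQ group relative to CON, with 1 point per gene, a line at each list's median, red for an adjusted p below 0.05 and pale red for an unadjusted p below 0.05. The SASP and lysosome medians lie furthest to the left, and the points beyond -1.5 include Perp, Cdkn1c and Igfbp2.

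The genes that fell beside the members were highest in the CON libraries, as were the choroid plexus markers. With the choroid plexus score as a covariate, 0 of all 13796 tested genes passed in either comparison, so none of the calls of Perp, Cdkn1c, Igfbp2, Mmp14, Fuca1 and Glb1 was kept. The choroid plexus markers set CON apart from every PQQ library, so this fit cannot separate that tissue from treatment. In it the log2FC turned positive for Perp (0.091 in PQQ-L and 0.51 in PQQ-H), for Igfbp2 (0.40 and 0.61) and for Cdkn1c (2.0 and 2.52). The log2FC of Mmp14 remained negative, at -0.97 in PQQ-L and -1.33 in PQQ-H. Without the 4 striatum-rich libraries, which leaves 1 CON library and 1 and 6 calls over all genes, none of these genes passed the adjusted test, while every log2FC stayed negative. In that fit the log2FC in PQQ-H vs CON was -1.31 for Perp, -2.06 for Cdkn1c, -1.44 for Igfbp2, -0.91 for Mmp14 and -0.36 for Glb1, and in PQQ-L vs CON it was -0.30 for Fuca1.

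The counts also turned on single controls. Without CON 2, the control that is not striatum-rich, the genes that passed the adjusted test in PQQ-L vs CON (limma) were 5 of the 23 p53 targets, 1 of the 11 p53 regulators, 5 of the 14 cell cycle genes, 4 of the 17 SASP genes, 3 of the 10 lamina genes, 9 of the 18 lysosomal genes and 7 of the 19 FoxO pathway genes, where 23.4% of all 13796 tested genes passed. Without CON 1, each of these 7 counts was 0, and without CON 3 the p53 target count stayed at 1 and the other 6 were 0. In PQQ-H vs CON the calls of Perp, Igfbp2 and Mmp14 held with any 1 library left out, with adjusted p up to 0.0351, 0.0465 and 0.0332. Cdkn1c passed there unless CON 1, CON 3, PQQ-H 3 or PQQ-H 4 was left out, with an adjusted p of 0.146 without CON 3. In PQQ-L vs CON, Perp lost its call without CON 1 (adjusted p = 0.0625), while Igfbp2, Mmp14 and Fuca1 lost theirs without any of 6 or 7 libraries, with adjusted p up to 0.163, 0.219 and 0.219.

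The genes with the pattern most like each tested member over the 12 libraries were ranked by Pearson's r of log2(FPKM + 0.1). These libraries share the split by striatum and choroid plexus markers described above, so r describes this set only. Cdkn1a was most like Cyp39a1 (r = 0.968), Kcnh4 and Jund, and Glb1 was most like Cab39l (r = 0.975), Smpd1 and Elmo3. Cab39l and Smpd1, the gene of acid sphingomyelinase, were at 8.54 to 28.0 FPKM and at 39.2 to 55.4 FPKM. For Foxo3 the nearest genes were Tent2 (r = 0.970), Dennd11 and Pogk, for Cdkn2c Tmem238 (r = 0.942), Cdca4 and Ebp, and for Lmnb1 Rad9b (r = 0.935), Acsf2 and Chp2. Trp53 was nearest to Ajap1 (r = 0.934), Edem2 and Med8, Cdkn1b to AI597479 (r = 0.932), Pias2 and Orc4, and Mdm2 to Nt5dc2 (r = 0.917), Vasn and Npff.

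Between the PQQ groups, no member passed the test. The log2FC of PQQ-H vs PQQ-L ranged over the 8 tested members from -0.095 for Glb1 to 0.15 for Trp53, with adjusted p from 0.622 to 0.972 by limma. The interval was widest for Cdkn1a, from -0.70 to 0.77, and narrowest for Glb1. For Cdkn1a the log2FC was 0.035 (adjusted p = 0.972 by limma), and its sign turned under several alternatives, among them leaving out the 4 striatum-rich libraries (-0.60, adjusted p = 0.304), array quality weights (-0.22) and leaving out PQQ-H 1 (-0.17), PQQ-H 2 (-0.19) or PQQ-L 5 (-0.032). PQQ-H 1 and PQQ-H 2 are striatum-rich and no PQQ-L library is, and the part of that tissue was not tested.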

How the data were processed

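Hippocampal RNA was extracted with TRIzol, and libraries were made with the VAHTS Universal V10 RNA-seq kit. Reads were cleaned by the authors in fastp, aligned in HISAT2 (to mm39 in the submitters' processing notes) and assigned to genes in HTSeq-count, and the deposited values are FPKM for 27833 genes in 12 libraries. Program versions, annotation and strandedness are not given in the sources used here, so overlapping and antisense genes cannot be separated. FPKM divides by library total and gene length, so a few very abundant transcripts lower all others.

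From the deposited FPKM, log2(FPKM + 0.1) was tested with limma 3.58.1 (R 4.3.3), using a mean-variance trend and a single model of the 12 libraries, on the 13796 genes whose mean reached 0.5 FPKM. The p-values were adjusted by the Benjamini-Hochberg method over these genes, at a threshold of 0.05. Fold changes on this log2 scale understate the change of low genes. Each member was also compared by a two-sided exact permutation test over every split of the libraries of 2 groups, adding 27 tests that were not adjusted. Whole reads were recovered from the ratios of FPKM between libraries (within 0.02 reads for 100% of the 25563 genes above 0 in at least 2 libraries). They give the depth and the voom alternative, and cover counting error only. Over 19 pairs of libraries of 1 group chi-square divided by its degrees of freedom was 17.4 or more, so no library was a duplicate. The labels do not state that each library came from a separate mouse, so p-values measure the spread between these libraries. CON, PQQ-L and PQQ-H are the treatments C, L and H of the labels. Replicate numbers were not taken to pair libraries. The correlation of same-numbered deviations ran from -0.62 to 0.72. It was not computed for differently numbered libraries, so it cannot show whether the numbers pair them.

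The members and the 7 pathway and 10 marker lists were chosen with earlier results of these data known. Named from each pathway list were the 2 genes of smallest p and every gene with an adjusted p below 0.05 in each PQQ comparison with CON (at most 4), partners of the members fixed by name, and the 3 genes of highest Pearson's r with each tested member. A gene of the FoxO list that this rule names is not reported here. Promoters came from RefSeq GRCm38.p6, which is not the build of the files, and were used for their letters only, 250 bases before each start. Alternatives were other pseudocounts and filters, median-of-ratios scaling, only the 2 groups compared, no trend, array quality weights, voom, a replicate block, 3 covariates and each library left out. Leaving out the 4 striatum-rich libraries was added after seeing the data. Read recovery and the limma fit were tested on simulated data beforehand. The scripts used Python 3.11.15 with numpy 2.4.6, pandas 2.3.3, scipy 1.17.1 and matplotlib 3.10.9.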

Additional observations from a re-analysis of the deposited data

Results flagged for a closer look

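Cdkn2a, the gene of p16 and p19ARF, had 1 library far from the others in each PQQ group. In PQQ-L 4 it was at 0.200 FPKM (8 reads), while the other 4 PQQ-L libraries were at 0.0245 to 0.0738 FPKM (1 to 3 reads). In PQQ-H 1 it was at 0.851 FPKM (34 reads), while the other 3 PQQ-H libraries were at 0.109 to 0.180 FPKM (4 to 7 reads). Both gaps exceeded Dixon's critical value at the 95% level. The test was made for 18 groups (9 genes in PQQ-L and in PQQ-H, since CON has 3 libraries and was not tested), it flagged 2 of them, and chance flags about 1 in 20. PQQ-H 1 is also the PQQ-H library with the highest sum of striatum markers, 2563 FPKM, and PQQ-L 4 has 49.4 FPKM of them, and their part in the Cdkn2a level was not tested.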

How the results depend on the processing

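Of 624 recomputed log2FC values of the 8 tested members, 553 kept their direction and their side of the adjusted threshold, 53 changed sign, 16 lost a call and 2 gained one. The number of members that passed the adjusted test (limma) in PQQ-H vs CON went from 1 to 0 with median-of-ratios scaling, only the 2 groups compared, array quality weights, the replicate block, the letter that opens each library name (L or R) as a covariate, the choroid plexus score as a covariate and without the 4 striatum-rich libraries. With each library left out it ran from 0 to 1, being 1 without CON 2 and without PQQ-L 3. In PQQ-L vs CON it ran from 0 to 2 with each library left out, and the 2 without CON 2 were Glb1 and Cdkn2c. At an unadjusted p below 0.05, the count in PQQ-L vs CON went from 1 to 2 with median-of-ratios scaling, to 0 with the choroid plexus score, to 0 without the 4 striatum-rich libraries, and ran from 1 to 4 with each library left out. In PQQ-H vs CON that count went from 1 to 0 with the choroid plexus score and ran from 1 to 3 with each library left out. In PQQ-H vs PQQ-L it went from 0 to 2 with the striatum score, to 2 without the 4 striatum-rich libraries, and ran from 0 to 1. The cause of these changes was not tested.

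The replicate numbers were not taken to pair libraries across groups, and correlations of same-numbered deviations ran from -0.62 to 0.72. With these numbers as a replicate block the adjusted p of Glb1 in PQQ-H vs CON was 0.248 (limma). The count of all genes that passed went from 151 to 49 there and from 81 to 23 in PQQ-L vs CON. With the choroid plexus score as a covariate, the log2FC that changed sign were, in PQQ-L vs CON Cdkn1a 1.44, Cdkn1b -0.16, Cdkn2c 0.26, Mdm2 0.20, Lmnb1 1.01, Glb1 0.24, Foxo3 0.53, Ccnd3 0.48, Ccng2 -0.15, Cdk4 0.048, Cdkn1c 2.0, Ctsd 0.41, Igfbp2 0.40, Lbr 0.52, Lmna 0.033, Perp 0.091, Phlda3 0.53, Rrm2b -0.46, Txnip 0.57, and in PQQ-H vs CON Cdkn1a 2.04, Cdkn1b -0.36, Cdkn2c 0.46, Mdm2 0.19, Lmnb1 1.48, Glb1 0.33, Foxo3 0.65, Ccnd3 0.56, Ccng2 -0.046, Cdk4 0.61, Cdkn1c 2.52, Ctsd 0.74, Fuca1 0.22, Igfbp2 0.61, Lbr 0.64, Lmnb2 -0.21, Perp 0.51, Phlda3 0.85, Rrm2b -0.75, Txnip 0.82, and in PQQ-H vs PQQ-L Cdkn2c 0.19, Glb1 0.086, Foxo3 0.12. With the striatum score as a covariate, the log2FC that changed sign were, in PQQ-L vs CON Cdkn1a 0.21, Lmnb1 0.13, Foxo3 0.16, and in PQQ-H vs CON Lmnb1 0.058, Lmnb2 -0.0096, and in PQQ-H vs PQQ-L Cdkn1a -0.42, Lmnb1 -0.068. Without the 4 striatum-rich libraries, an alternative added after seeing the data, the log2FC that changed sign were, in PQQ-L vs CON Cdkn1a 0.36, Cdkn2c 0.17, Trp53 0.051, Lmnb1 0.14, Foxo3 0.18, Lbr 0.095, Rrm2b -0.055, and in PQQ-H vs CON Lmnb2 -0.031, Rrm2b -0.024, and in PQQ-H vs PQQ-L Cdkn1a -0.60, Lmnb1 -0.15. With array quality weights, the log2FC that changed sign were, in PQQ-L vs CON Mdm2 0.023, and in PQQ-H vs CON Banf1 -0.018, and in PQQ-H vs PQQ-L Cdkn1a -0.22. With median-of-ratios scaling, the log2FC that changed sign were, in PQQ-H vs CON Lmnb1 0.026. With the replicate block, the log2FC that changed sign were, in PQQ-H vs CON Lmnb1 0.057, and in PQQ-H vs PQQ-L Cdkn1a -0.032, Cdkn2c 0.013. With each library left out, the log2FC that crossed 0, from lowest to highest, in PQQ-L vs CON were Mdm2 (-0.13 to 0.052). With each library left out, the log2FC that crossed 0, from lowest to highest, in PQQ-H vs CON were Trp53 (-0.088 to 0.098), Lmnb1 (-0.19 to 0.081), Banf1 (-0.029 to 0.13), Crebbp (-0.012 to 0.13), Lmnb2 (-0.048 to 0.073). With each library left out, the log2FC that crossed 0, from lowest to highest, in PQQ-H vs PQQ-L were Cdkn1a (-0.19 to 0.28), Cdkn2c (-0.16 to 0.14), Lmnb1 (-0.018 to 0.25), Foxo3 (-0.18 to 0.012).

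The count of all genes that passed moved widely with the settings, in PQQ-L vs CON from 81 to 124 with a pseudocount of 1 and to 3224 without CON 2, and in both comparisons with CON to 0 with the choroid plexus score. Cdkn2a had 1 to 34 reads per library, so counting error is largest for it, and the 3 CON libraries limit the precision of every comparison with CON.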
